A study of Mus musculus with 2 samples.

Results

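Open chromatin sites whose summit lay inside an annotated exon, yet over 1 kb from any transcription start site, were examined in erythroblasts of the mouse, which mature into red blood cells. A site was an interval of the replicate 1 peak list on chromosomes 1 to 19 or X that overlapped an interval of the replicate 2 list by at least 1 bp, and its strongest summit decided its place in the GENCODE M21 annotation. Of 16180 sites shared by both replicates, 482 (2.98%) met the rule. They made up 7.45% of the 6469 shared sites that lay over 1 kb from a start site, here called distal. By the sequence at the summit, 140 were coding, 191 lay in a 3' UTR, 7 in a 5' UTR and 144 in a noncoding exon, that is, an exon of a transcript without a reading frame there.

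The series held ATAC-seq, in which a transposase cuts accessible DNA and leaves sequencing adapters in it, from a single group, primary erythroblasts of C57BL/6J males, 5 to 6 weeks old. The 2 biological replicates started from 50000 cells each, and there is no second condition to compare. The replicates are separate biosamples in the labels but carry the same donor identifier, and the label of replicate 2 names a pair of sequencing instruments while that of replicate 1 names none, so the spread between them may be technical. The peak lists give, for each summit, a fold enrichment over background as the authors' caller computed it, and no read counts, so the depth behind each value is unknown.

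Most enhancers lie in introns or between genes, where the DNA is free of other duties. A minority lie in exons, where the same bases serve as message and as binding sites: coding exons that hold transcription factor sites bear both the amino acid code and the regulatory letters, while 3' UTRs are known mainly for sites that act in the RNA. In red cell precursors, distal open sites are known for binding by GATA1, often with TAL1 on a neighbouring E-box, by KLF1 on CACCC boxes and by NFE2, and CTCF marks sites of chromatin looping in all cell types.

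The sequences that illustrate the sites are given first, since the motifs near the summits are what the classes were compared on. For each class the first 4 sites by mean enrichment that hold a motif of GATA, CTCF, a CACCC or GC box, or NFE2/AP-1 within 75 bp of the summit, in either direction, are shown, with the motif nearest to the summit in capitals. All sequences are GRCm38 (mm10), read from the RefSeq GRCm38.p6 genome 5′ to 3′ on the strand named. The 4 coding sites were these:
Magix (chrX:7679861-7679890, plus strand): agcccctcctgCCCCGCCCtaccaagtcct
Tab3 (chrX:85614885-85614914, minus strand): cttcctggtttcTGATAActaggaggtcct
P4ha1 (chr10:59348414-59348443, minus strand): gtaagtcaggccAGATAAcagacctagctc
Ptprk (chr10:28566562-28566591, minus strand): agctgtcctgtcTGATAAggggactctgtc
Those in 3' UTRs were these:
Coa5 (chr1:37419559-37419588, plus strand): gtgcaatactcCCACTCCCagtgggggcag
Zfp568 (chr7:30024002-30024031, plus strand): ttggaacctttCCACACCCacacccgggcc
Dcaf17 (chr2:71090836-71090865, plus strand): ccgtgtgttttcAGATAGggtttcactagg
Iffo2 (chr4:139616747-139616776, minus strand): acgcctccaggCCCCACCCtcaccttagag
Those in noncoding exons were these:
Fez2 (chr17:78400277-78400306, plus strand): acaccctctgaTGAGTCAgcaggaacgtgt
Gm48356 (chr13:22051058-22051087, minus strand): cgcccgcctagCCACGCCCaccaccgtctt
Odf2 (chr2:29917824-29917853, plus strand): ctggccacacgcTGATAAgatgggagtgcc
Gm48545 (chr10:19094461-19094490, minus strand): ctgtaccagcgcAGATAGgaggaagtgtcc

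The capitals mark a CACCC or GC box in Magix, Coa5, Zfp568, Iffo2 and Gm48356, an NFE2/AP-1 motif in Fez2, and a GATA motif in the others. In Ptprk and Dcaf17 the GATA motif was centred 0.5 bp from the summit. The capitals lay farthest from it in Iffo2, at 67.5 bp, and in P4ha1, at 43.5 bp. The printed stretches of Magix, Tab3, P4ha1, Coa5 and Iffo2 do not hold the summit. In Magix and P4ha1 the capitals lay outside the coding exon that held the summit, and in the other 10 they lay inside it. The strongest coding and the strongest noncoding site with the core of a CTCF motif, chosen after the values were seen, are shown next with that core in capitals:
Magix (chrX:7679963-7679992, plus strand): cggctcgtgCCGCCAGGGGGCgcgcatcca
1700015I17Rik (chr8:35708001-35708030, minus strand): caatgacagCCACCAGGTGGCagaacagaa

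The motifs searched were AGATAA, its variant AGATAG, and with another first base TGATAA or the variant TGATAG for GATA, CCNNNAGNNGGC for the CTCF core, CCNCNCCC for the CACCC or GC box of KLF and SP factors, TGANTCA for NFE2 and AP-1, and an E-box end TG followed after 7 or 8 bases by AGATAA or TGATAA for the composite of TAL1 with GATA1, all on both strands. The composite contains the letters of the GATA motif, so the same bases can count for both. A match is a description of the letters and not evidence of binding.

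Coding sites were led by genes of many functions, and each of the 6 strongest ranked high in its peak list. Magix, an X-linked gene of a PDZ-domain protein, had an enrichment of 13.6 in each replicate (mean 13.6 ± 0.0349, SD, n = 2) at a summit in exon 2 (chromosome X, 7679914). Tab3, which encodes an adaptor of the kinase TAK1, had 11.9 in replicate 1 and 13.7 in replicate 2, in exon 4 of 9, with a RefSeq transcript start 651 bp from the summit. P4ha1, a subunit of the enzyme that hydroxylates proline in collagen, had 12.7 and 12.3 in exon 6 of 15. Of the 6 strongest coding sites, Tab3 alone was higher in replicate 2, while 56.6% of all 482 sites were. Ptprk, a receptor tyrosine phosphatase, had 13.0 and 11.03 in exon 17 of 32. Smpdl3a, a phosphodiesterase related to acid sphingomyelinase, had 11.7 and 11.2, and Sgtb, a co-chaperone, had 11.5 and 11.3. These 6 values of replicate 1 lay between the 84.4th and the 94.7th percentile of all intervals of that list, promoters included.

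The 3' UTR sites were led by Coa5, an assembly factor of cytochrome c oxidase, with 13.8 in replicate 1 and 13.1 in replicate 2 in the last exon (chromosome 1, summit 37419591). Zfp568, a zinc finger repressor, had 12.3 and 12.3, and Dcaf17, a substrate adaptor of a ubiquitin ligase, had 11.96 and 12.3. Iffo2, of the intermediate filament family, had 10.99 and 12.8. Syp, which encodes the synaptic vesicle protein synaptophysin, had 12.5 and 10.96. Hpd, an enzyme of tyrosine breakdown, had 11.8 and 11.6. The genes of these last 2 had no open promoter, while those of the other 4 did, where open means a summit of each replicate within 1 kb of any of the gene's start sites.

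The noncoding sites were led by Fez2, with 13.8 and 14.3 in the last exon of a retained-intron transcript (chromosome 17, summit 78400292). Gm48356, a gene of a single exon, had 12.7 and 11.7. Pmm2, which encodes a phosphomannomutase of protein glycosylation, had 11.9 and 11.8. B930059L03Rik had 11.9 and 11.6, Odf2, a protein of centrosomes and sperm tails, 11.3 and 11.9, and Gm15201 11.4 and 11.4. Of these 6, Fez2, Gm48356 and B930059L03Rik had a RefSeq transcript start 33 bp, 310 bp and 302 bp from the summit that GENCODE M21 does not place there.

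**Figure D1:**
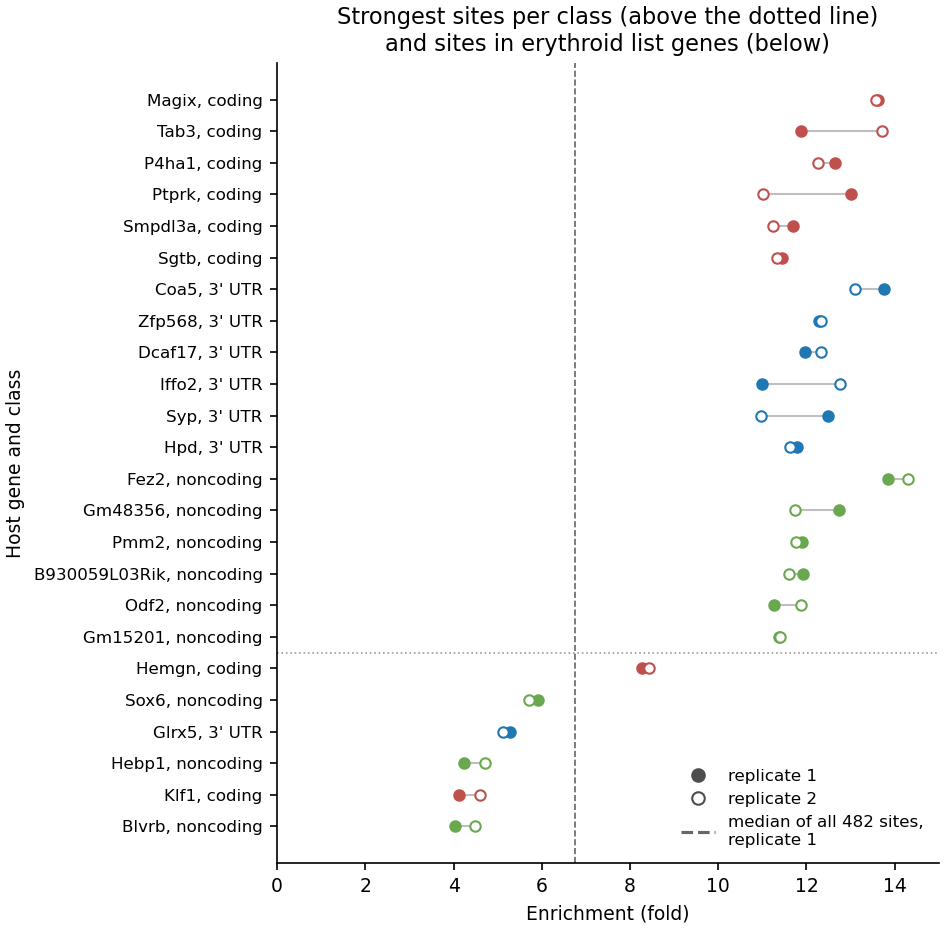
Enrichment (fold, x axis) of the 6 strongest sites of each class and of the sites in genes of the erythroid lists (y axis, host gene and class), with replicate 1 as filled and replicate 2 as open circles. The 18 sites above the dotted line lie between 10.96 and 14.3, while of the 6 erythroid list genes only Hemgn lies above the median of all sites, 6.75 in replicate 1 (dashed line).

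The 7 sites in 5' UTRs were rich in CpG. Sf3b5, a subunit of the splicing factor SF3b, held the strongest of all 482 sites, with 13.97 in replicate 1 and 15.1 in replicate 2. Nup160, of the nuclear pore, had 11.8 and 11.04, and Pura, a protein that binds single-stranded nucleic acid, 11.01 and 11.6. A930004D18Rik had 9.04 and 8.05, and Rap2b, a small GTPase, 7.59 and 8.96. Kdm6b, a demethylase of histone H3, had 6.98 and 6.76, and Ethe1, a mitochondrial sulfur dioxygenase, had 6.51 and 5.53. Their median ratio of observed to expected CpG was 0.935, against 0.413 for coding, 0.257 for 3' UTR and 0.277 for noncoding sites and 0.817 for shared sites at promoters. In 6 of the 7 a RefSeq start lay within 1 kb of the summit, the exception being Nup160, and none of the 7 host genes was open at a GENCODE start site. Among all 482 sites, 37 had a RefSeq start within 1 kb, 10 of them counting curated transcripts alone. Those 37 had a median CpG ratio of 0.625 and a GATA motif in 7 (18.9%), and the other 445 had 0.302 and a GATA motif in 167 (37.5%).

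The enrichment of the sites was similar in both replicates. Its median was 6.75 in replicate 1 (lowest 2.38, highest 13.97) and 6.96 in replicate 2 (2.37 to 15.1), and the log2 values of the 482 sites had a Pearson correlation of 0.939 and a Spearman correlation of 0.932, given as a description because the sites come from the same 2 libraries. Summits of the replicates lay within 25 bp of each other in 94.6% of sites and over 100 bp apart in 10. At the replicate 2 summit, 466 of the 482 (96.7%) had the same class, 5 had another exon class and 11, among them 10 coding sites, lay outside exons. Only 2 sites differed by more than 1.5-fold. In Cd36, a fatty acid receptor, a coding site had 4.18 and 8.55 with summits 466 bp apart, and in Gm47588 a site had 3.40 and 9.64 with summits 759 bp apart. The latter shared its replicate 2 interval with a second site of Gm47588, of 9.95 in replicate 1, so the 9.64 was counted for both. All 482 sites overlapped the pooled thresholded, conservative and replicated lists. Those lists derive from the same 2 libraries and the sites were chosen for a peak in both, so this overlap adds little. The correlation was not particular to exons, since all distal shared sites had a Pearson correlation of 0.938. The weakest were Ucp2, a mitochondrial carrier, at 2.38 and 2.37 in its 3' UTR and Clk3, a splicing kinase, at 2.82 and 2.85 in a noncoding exon.

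**Figure D2:**
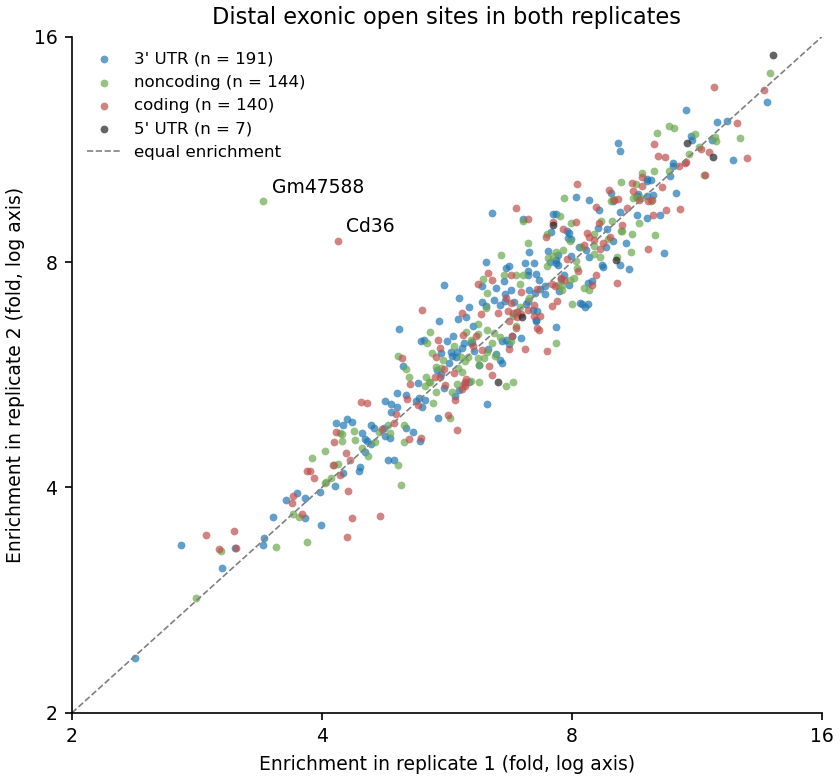
Enrichment of each of the 482 sites in replicate 1 (x axis, fold, log axis) and replicate 2 (y axis, fold, log axis), colored by class. The points follow the line of equal enrichment, and the sites of Gm47588 and Cd36 lie farthest above it.

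Against the distal sites of introns and intergenic sequence, the exonic ones were slightly weaker in both lists. Their medians of 6.75 and 6.96 compare with 6.998 and 7.12 in 3408 intronic sites and 7.38 and 7.55 in 2579 intergenic sites, and the SD between the 2 replicate medians of exonic sites was 0.148, less than the gap to intergenic sites in either list and close to that to intronic sites in replicate 2 (7.12 against 6.96). Promoter sites had 9.09 and 9.28. The classes differed little among themselves, with medians of 6.86 and 6.88 for coding, 6.65 and 7.02 for 3' UTR and 6.60 and 6.70 for noncoding sites. Exonic sites of replicate 1 were found again in replicate 2 in 84.6% of cases (482 of 570, 95% Wilson interval 81.4% to 87.3%), intronic ones in 85.8% (84.6% to 86.8%) and promoter ones in 95.2% (94.8% to 95.6%). Such intervals cover counting error only. Regions are not replicates, so none of these differences was tested.

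For the sequence they occupy, exons held more distal sites than introns or intergenic sequence. Exons were 3.48% of the sequence over 1 kb from a start site and held 7.45% (6.84% to 8.12%) of the distal shared sites, a density of 5.76 per Mb against 3.38 in introns and 1.97 in intergenic sequence. In the lists taken singly, the density in exons was 6.81 per Mb in replicate 1 and 7.16 in replicate 2 (mean 6.98 ± 0.245, SD, n = 2), against 4.14 ± 0.292 in introns and 2.40 ± 0.134 between genes, so that the gap was larger than the spread between replicates. Coding exons had 5.59 shared sites per Mb, 3' UTRs 6.19 and noncoding exons 5.31.

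The exonic sites lay nearer to start sites, and the gaps to introns and intergenic sequence shrank when sites were compared at like distances. Between 1 and 2 kb from a start site, exons had 8.50 sites per Mb and introns 7.78, a ratio of 1.09. The ratio was 1.17 between 2 and 5 kb, 1.45 between 5 and 10 kb and 1.27 between 10 and 50 kb. Against intergenic sequence the ratios in these 4 ranges were 1.64, 1.51, 1.52 and 1.72. Beyond 50 kb there were 2 exonic sites. By distance, 139 of the 482 sites (28.8%) lay within 2 kb of a start site, and this share was 17.8% in 3' UTRs, 30% in coding and 42.4% in noncoding exons. The interval of 42 sites reached within 1 kb of a start site although the summit did not.

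**Figure D3:**
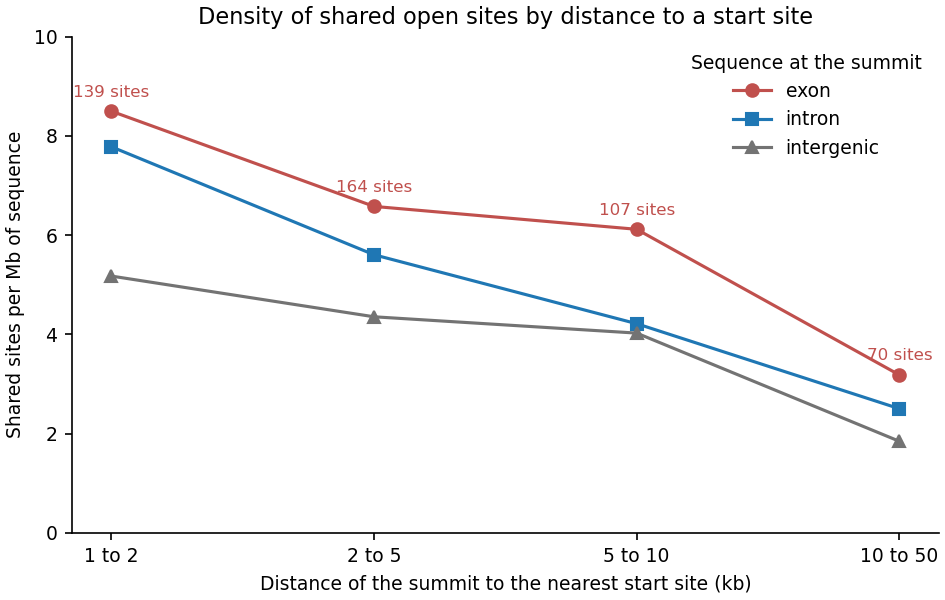
Shared open sites per Mb (y axis) in exons, introns and intergenic sequence by distance of the summit to the nearest start site (x axis, kb), with the number of exonic sites beside each point. Exons lie above introns in each of the 4 ranges shown, by 1.09 to 1.45 times.

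The sites just beside the limit of 1 kb ranged widely in strength. Just outside it lay Ntn3 (1001 bp, enrichment 3.73 and 3.93), Dmpk (1006 bp, 6.56 and 7.02) and Golga7 (1007 bp, 8.64 and 8.12). Just inside lay Gm44001 (1000 bp, 5.19 and 4.86), Cenpb (996 bp, 2.22 and 4.54) and Gm26546 (996 bp, 6.10 and 5.55). Of these, Ntn3, Gm44001 and Cenpb lay below the lower quartile of the 482 sites in both replicates (5.40 and 5.49). No site in Nprl3, the gene next to the alpha globin genes, met the rule.

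Coding sites mostly sat in internal exons and 3' UTR sites in last exons, which the annotation of these classes largely sets in advance. The shares of all distal coding and 3' UTR bases in internal and last exons were not computed. Of the 140 coding sites, 92 lay in an internal and 38 in the last exon, and in 69 the host exon lay wholly inside the open interval. The median host exon of coding sites was 256 bp long, and the median open interval was 65.1% exonic. Of the 191 sites in 3' UTRs, 177 lay in the last exon, the median host exon was 2297 bp long, and 79.1% of the intervals were wholly exonic. The median length of all annotated exons over 1 kb from a start site was 126 bp for coding and 676 bp for last exons. A base drawn from all such exons falls in an exon of a median 205 bp for coding and 2513 bp for last exons, so that host exons exceeded this length for coding sites and fell short of it for 3' UTR sites.

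**Figure D4:**
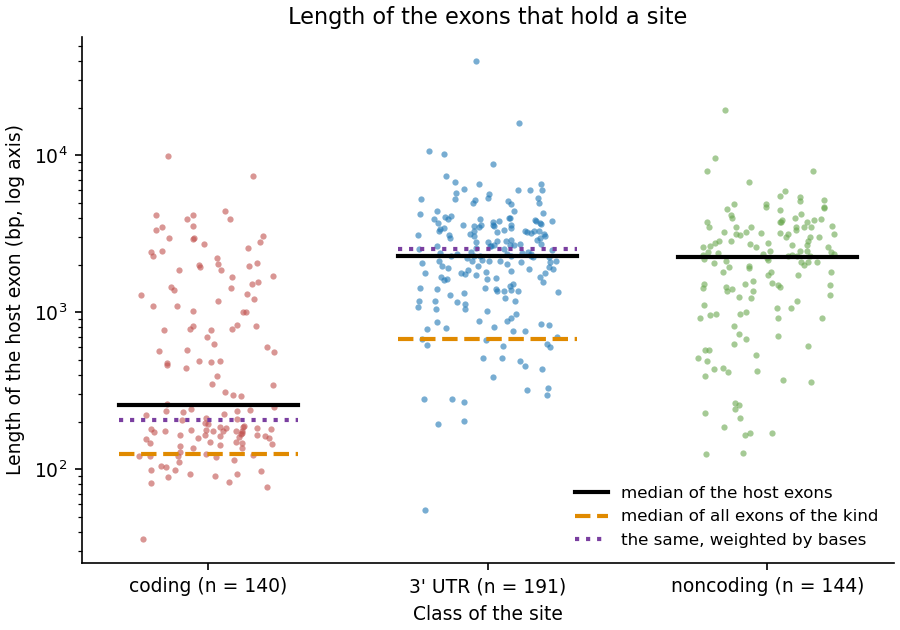
Length of the host exon (y axis, bp, log axis) of each site by class (x axis), with the median of the host exons (solid), of all annotated exons of the kind over 1 kb from a start site (dashed) and of the same weighted by their bases (dotted). The solid and dotted lines lie close together, at 256 and 205 bp for coding and at 2297 and 2513 bp for 3' UTR sites, whose comparison is all last exons; no such lines were drawn for noncoding sites.

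GATA motifs were less frequent at exonic sites than at distal sites at large. Of the 482 sites, 174 (36.1%, Wilson interval 31.9% to 40.5%) held one within 75 bp of the summit, against 48% of all distal shared sites, 52.8% (51.1% to 54.5%) of intronic and 43.9% (42.0% to 45.9%) of intergenic ones. The share was 32.1% (24.97% to 40.3%) in coding, 33.5% (27.2% to 40.5%) in 3' UTR and 44.4% (36.6% to 52.6%) in noncoding exons. In windows of the same length 1 kb to each side that overlapped no peak, it was 25.1% (20.2% to 30.8%) beside coding sites, 19.01% (15.3% to 23.4%) beside 3' UTR sites and 20.7% (16.2% to 25.9%) beside noncoding sites, so the interval of coding sites overlapped that of their flanks and the other 2 did not. Median GC content differed with these groups: it was 59.9% in coding, 53.6% in 3' UTR and 53.0% in noncoding windows, 52.3% in intronic ones and 49.0% in the flanks of coding sites, and its part in the motif shares was not tested. Of the 45 coding sites with a GATA motif, 40 had one wholly within the exon. The composite of E-box and GATA stood at 78 sites (16.2%), against 20.4% of all distal shared sites and 23.4% of intronic ones. Its interval at exonic sites (13.2% to 19.7%) held the share of intergenic sites, 17.1%. At coding sites it was in 16.4% (11.2% to 23.4%) of summit windows and in 0.784% (0.215% to 2.81%) of flanking windows.

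The core of the CTCF motif was found at 115 sites (23.9%, 20.3% to 27.9%), against 20.7% of all distal shared sites. Intergenic sites had 24.2% (22.5% to 25.8%), close to the exonic share. The share was 27.2% (21.4% to 33.9%) in 3' UTR, 25% (18.6% to 32.8%) in coding and 18.8% (13.2% to 25.9%) in noncoding exons, against 17.5% (16.3% to 18.9%) in introns. In the flanking windows it was 4.31%, 2.20% and 2.63% beside coding, 3' UTR and noncoding sites. The core lay closer to the summit than the GATA motif did: within 25 bp in 71.3% of the sites with a core and in 60.3% of the sites with a GATA motif. All 52 of the 3' UTR sites with a core had it wholly within the exon. Against the host gene, the core was on the sense strand alone in 24 and on the antisense strand alone in 27 of these, and the GATA motif of 3' UTR sites was on each alone in 26. At noncoding sites the GATA motif was on the sense strand alone in 36 and on the antisense strand alone in 21, and the core in 10 and 17. At coding sites these counts were 20 and 16 for GATA and 17 and 16 for the core.

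The box of KLF and SP factors had a higher share in coding than in noncoding exons, and the motif of NFE2 and AP-1 a lower one. The CACCC or GC box stood at 128 sites (26.6%), close to the 27.4% of all distal shared sites, with 34.3% (26.9% to 42.5%) in coding, 26.7% (20.9% to 33.4%) in 3' UTR and 18.1% (12.6% to 25.1%) in noncoding exons, and it stood at 3 of the 7 sites in 5' UTRs. The flanks of coding sites had 14.5% (10.7% to 19.4%). The NFE2/AP-1 motif stood at 31 sites (6.43%) against 9.63% of all distal shared sites. It was at 4 coding sites (2.86%, 1.12% to 7.12%), 11 in 3' UTRs (5.76%, 3.25% to 10.02%) and 16 in noncoding exons (11.1%, 6.96% to 17.3%). The intervals of coding and noncoding sites overlapped slightly for this motif. Beside coding sites the flanks had 4.31% (2.43% to 7.56%), so it was not more frequent at coding summits than around them.

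**Figure D5:**
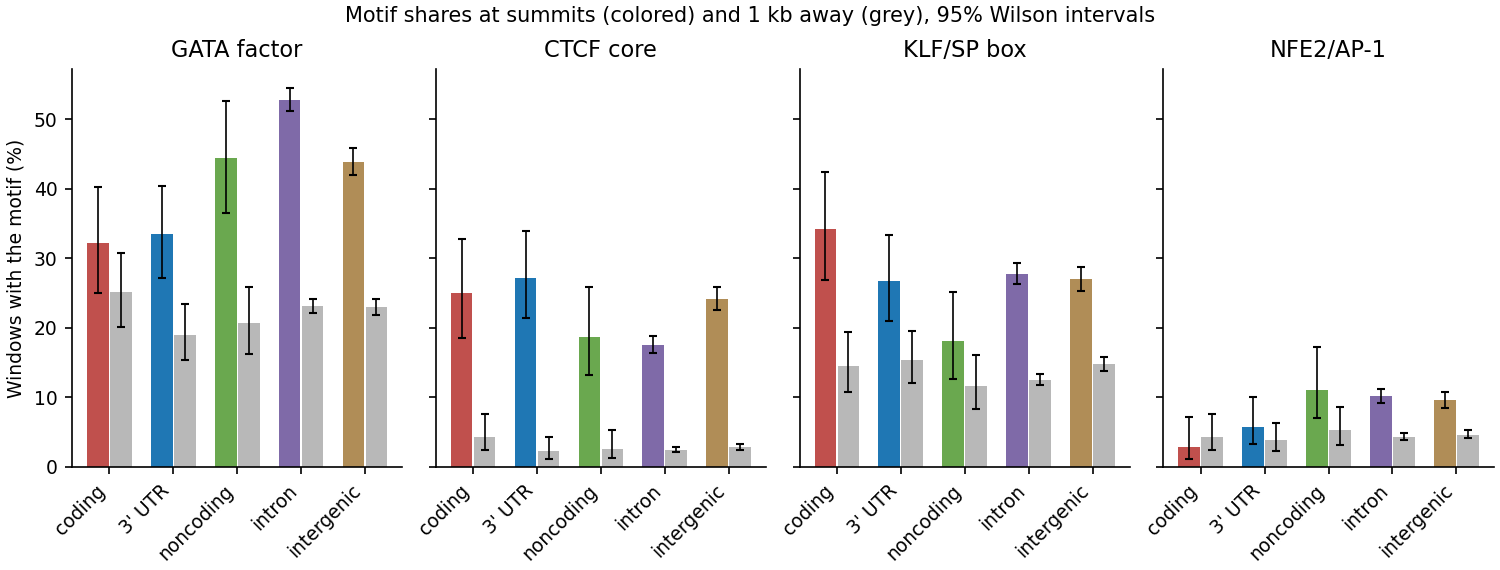
Share of windows of 75 bp to each side of a point (y axis, %) with a motif of GATA factors, CTCF, KLF and SP factors or NFE2/AP-1 at summits (colored bars) and 1 kb away outside peaks (grey bars), by class of distal site (x axis), with 95% Wilson intervals. The CTCF core reaches 25% and 27.2% at coding and 3' UTR summits against 4.31% and 2.20% in their flanks, while the GATA share is highest at intronic summits, 52.8%.

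Few sites held both a GATA motif and a CTCF core, in exons as in introns and intergenic sequence. Both stood at 17 exonic sites (3.53%), against 3.79% of intronic and 4.19% of intergenic sites. A GATA motif without a CTCF core stood at 157 sites (32.6%), against 49.0% of intronic and 39.7% of intergenic sites. A core without GATA stood at 98 (20.3%), against 13.8% and 19.97%. Neither stood at 210 (43.6%), against 33.4% and 36.1%. Among coding sites, the 40 with GATA alone had a median enrichment of 8.31 in replicate 1 and 8.56 in replicate 2, and the 30 with CTCF alone had 6.46 and 6.71. In 3' UTRs these medians were 7.05 and 7.02 for GATA alone and 6.56 and 7.24 for CTCF alone, so the order held in replicate 1 and turned in replicate 2. In noncoding exons they were 6.66 and 7.25 for GATA alone and 7.47 and 6.95 for CTCF alone, the reverse order of coding sites in replicate 1. Coding sites with GATA alone lay farther from a start site, at a median of 7013 bp against 3312 bp for CTCF alone. These groups were formed after the values were seen and were not tested.

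The noncoding class was a mixture. Of its 144 sites, 73 lay in protein-coding genes, in transcripts without a reading frame, and 60 of these sites in retained-intron transcripts. The other 71 sites lay in genes of other types, among them 26 sites in lincRNA and 15 in antisense genes. The 73 held a GATA motif in 40 cases (54.8%) and the 71 in 24 (33.8%), where introns have 52.8%. By the definition of the class, which leaves out coding and UTR bases, no exon of a protein-coding transcript could cover any of the 144 summits. Median enrichment was 6.55 and 6.41 in the former and 6.75 and 7.16 in the latter, lower in the former in both replicates.

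The sites lay in exons of 456 genes, and 26 of these held 2 sites and none held more. Coding and 3' UTR sites of the same gene were found in Htt, which encodes huntingtin (coding 10.4 and 9.39, 3' UTR 7.42 and 7.44), in Ankrd40 (10.3 and 11.04, 5.93 and 6.23) and in Naa16, a subunit of an N-terminal acetyltransferase (8.90 and 8.64, 7.72 and 7.32). In each of these genes the coding site was the stronger in both replicates. Itsn1, an endocytic scaffold, had the reverse order, with 4.16 and 4.75 in the coding and 9.85 and 9.82 in the 3' UTR site. These 4 genes were picked after their values were seen.

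Selenbp1 and Selenbp2, neighbouring genes of selenium-binding proteins on chromosome 3, each had 2 coding sites in exons 9 and 10. The stronger had 9.73 and 10.1 in Selenbp1 and 9.89 and 9.66 in Selenbp2, and the weaker 6.71 and 6.89 in Selenbp1 and 5.92 and 6.396 in Selenbp2. The summit windows are near-identical copies of each other (98.7% identity for the stronger pair), so reads of one gene could be counted for the other and these values are uncertain. The printed stretch is the same in both, with the GATA motif in capitals lying outside exon 9:
Selenbp1 (chr3:94942765-94942794, plus strand): gctgcttggggcTGATAAgggagaagcagg
Selenbp2 (chr3:94702621-94702650, plus strand): gctgcttggggcTGATAAgggagaagcagg
In all, 10 sites had another copy of at least 95% identity over 80% of the window in the genome, Lars2 and Zmpste24 among them.

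Of the protein-coding genes, 391 (1.8% of 21755) held a site in an exon. Their promoters were open in 270 cases (69.1%, 64.3% to 73.4%), against 41.3% of all protein-coding genes and 72.7% (70.7% to 74.7%) of the 1977 genes whose span held a distal intronic site. By class, 65% of the genes with a coding site, 67.6% of those with a 3' UTR site and 88.7% of the 71 with a noncoding site had an open promoter.

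The label of the cells was checked on gene lists. Promoters were open for 41.3% of all protein-coding genes, for 27 of 28 housekeeping and for 30 of 31 cell cycle genes. A high count in an erythroid list alone therefore does not identify the cells. Promoters were open for 29 of 32 erythroid transcription regulators, 28 of 31 heme and iron genes, 24 of 29 membrane and cytoskeleton genes, 26 of 29 receptor, survival and maturation genes and 4 of 10 globin genes, and for 1 of 18 B cell, 2 of 22 T and NK cell, 2 of 22 granulocyte and monocyte, 0 of 16 macrophage, 5 of 22 megakaryocyte, 2 of 16 stem and progenitor, 0 of 20 hepatocyte and 0 of 20 neuron markers. None of these marker genes of other cell types held a site in an exon, beside 1.8% of all protein-coding genes. Nor did any of the 10 globin, 29 membrane and cytoskeleton or 28 housekeeping genes, so this absence does not set the markers apart.

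Of the sites in exons of erythroid genes, 1 was above the median enrichment of all 482 and 5 were below it in both replicates. Sites lay in exons of 2 of 32 transcription regulators, 2 of 31 heme and iron genes, 2 of 29 receptor, survival and maturation genes, 0 of 29 membrane genes and 0 of 10 globin genes, beside the 1.8% of all protein-coding genes. Hemgn, an erythroid nuclear protein, had the strongest, at 8.27 and 8.43 in coding exon 3 (chromosome 4, summit 46395930). Sox6, a repressor of embryonic globin, had 5.90 and 5.71 in a noncoding exon 1.52 kb from a start site. Glrx5, which serves iron-sulfur cluster assembly, had 5.28 and 5.13 in its 3' UTR. The other 3 lay below the lower quartile of their class in both replicates. Hebp1, a heme-binding protein, had 4.23 and 4.71 in a noncoding exon. Klf1, the erythroid Krüppel-like factor, had 4.13 and 4.61 in coding exon 2, 1.30 kb from a start site. Blvrb, a biliverdin reductase, had 4.04 and 4.48 in a noncoding exon. A GATA motif stood in the window of Hemgn, Glrx5 and Hebp1, a CTCF core in that of Klf1, and none of either in Sox6 and Blvrb. The stretches with the GATA motif in capitals were these:
Hemgn (chr4:46395953-46395982, plus strand): cctgacaggtctTGATAGagaggtcttcag
Glrx5 (chr12:105041172-105041201, minus strand): ctgtacctcagcTGATAAagtgcttgcctg
Hebp1 (chr6:135165896-135165925, plus strand): caatgaagagccTGATAAggttggactgga

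More erythroid genes had such a site within 50 kb of a start, mostly in an exon of another gene. This held for 5 of 32 transcription regulators, 7 of 31 heme and iron genes, 4 of 29 membrane genes, 5 of 29 receptor, survival and maturation genes and 0 of 10 globin genes, against 6.92% of all protein-coding genes and for 4 of 31 cell cycle, 1 of 28 housekeeping and 3 of 22 granulocyte and monocyte genes. The strongest stood in a coding exon of Dkc1, which encodes dyskerin, 15.4 kb from a start of Mpp1, a red cell membrane scaffold, with 9.70 and 10.4 and a GATA motif. A noncoding exon of AU022252, 14.9 kb from a start of Ermap, an erythroid membrane protein, had 9.46 and 8.71 without a GATA motif. A coding exon of Zswim5, 4.69 kb from a start of Urod, an enzyme of heme synthesis, had 7.57 and 7.49, also without one. A noncoding exon of Tnk2os, 41.7 kb from Tfrc, the transferrin receptor, had 7.78 and 7.35 with a GATA motif. The 3' UTR of Tmem184a, 6.81 kb from Mafk, a small MAF partner of NFE2, had 5.05 and 4.81 with a GATA motif. Sites stronger than that of Tmem184a were left out of this account. Among them, Unc5cl near Tspo2 (7.70 and 7.92), Rtbdn near Prdx2 (7.64 and 7.43) and Espnl near Erfe (6.66 and 7.85) had no GATA motif. Nucb1 near Ftl1 (6.17 and 5.95) had one. A GATA motif stood at 36.1% of all 482 sites, and the picked sites do not show that it is more frequent near erythroid genes. Distance was all that tied these sites to the genes, and a gene with several sites was counted once. The genes of this paragraph were picked after their values were seen.

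The sites also differed from intronic ones in their neighbours. Another distal shared site lay within 10 kb of 165 of the 482 (34.2%), against 40.3% of intronic sites, and the nearest shared promoter site was a median of 13.0 kb away against 20.9 kb. For noncoding sites this distance was 10.2 kb, and a promoter site lay within 5 kb of 43 of the 144 (29.9%). Exonic sites also lay nearer to a start site, at a median of 3468.5 bp against 6104 bp for intronic ones. Neighbours were not compared at like distances.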

How the data were processed

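Peak lists of 2 replicates of 1 group were used, in mm10 coordinates per the labels. The authors deposited, for each summit, a fold enrichment over background (a ratio) and a −log10 p. The deposited offset of the summit from the interval's start is in bp. The lists used were thresholded on the irreproducible discovery rate, per the deposited listings. Aligner, peak caller and versions were not given in the sources used here. Nor is any step that makes values comparable between lists, so means and SDs over the replicates describe 2 lists. The lists hold no read counts and the depth is unknown.

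Distinct intervals with several summits were counted once, at the summit of highest enrichment. The replicate 2 value of a site is that of the strongest overlapping interval. A coding base took precedence over a 3' UTR, a 5' UTR and a noncoding exon. Motif windows reached 75 bp to each side of the summit. Where several transcripts gave a site its class, those of protein-coding genes were preferred as host. Code was tested on simulated data. Python 3.11.15, numpy 2.4.6, pandas 2.3.3, pysam 0.24.0 and blastn 2.17.0 were used. Of 347 list symbols 346 matched the annotation. There were 0 further columns of per-sample values.

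The members, gene lists and motifs were chosen with earlier results of these data known. Named genes are the 6 strongest members of each class, members in erythroid list genes and those next to the 1 kb limit. Sites in 5' UTRs, Gm47588, Cd36, the weakest sites, Lars2, Zmpste24, Selenbp1, Selenbp2, the genes with several sites and those near erythroid genes were named after their values were seen.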

Additional observations from a re-analysis of the deposited data

How the results depend on the processing

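The number of sites in all and of coding, 3' UTR and noncoding sites, the shares of all sites with a GATA, CTCF, CACCC or GC box and NFE2/AP-1 motif and the median enrichment of all sites were recomputed under other ways of choosing the sites, 2 of them added after seeing the data, and motif shares also in a narrower and a wider window (50 and 100 bp to each side of the summit). Shares and medians within a class and the counts over gene lists were not. Of 112 recomputed values, 11 left their limit: 1.5 times for a count, the Wilson interval for a share and the SD between the replicate medians for the median enrichment (main value 6.87). The 112 include values that tell little. Requiring the conservative list, which held all 482 sites, and taking the summit of highest significance returned every main value. The count of noncoding sites without an exon of a protein-coding transcript was fixed by the definition of the class. The number of noncoding sites, 144, became 83 when sites had to lie over 2 kb from a start site, 230 when over 500 bp and 83 with basic transcripts only. The median enrichment became 7.11 over 2 kb and 6.53 over 500 bp, and from 6.50 to 6.53 in the list of 1 replicate alone. The GATA share of 36.1% was 31.7% in the narrower and 41.5% in the wider window, and that of the CACCC or GC box was 22.2% in the narrower. The share of host genes with an open promoter was 62.7% when the outermost 5' end of the gene was its only start site. Under that setting it was 37.9% of all protein-coding genes and 62.7% of those whose span held a distal intronic site. Leaving out sites with a RefSeq start within 1 kb left 445, and leaving out those with another copy in the genome left 472. Exons of protein-coding transcripts alone gave 327 sites. No paired analysis was possible because there is 1 group. With 2 libraries, 1 donor identifier and no read counts, the spread between mice and the depth behind a weak site could not be given.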
